A study of Mus musculus with 9 samples.

Results

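Elastin and the microfibril genes that accompany it were followed across smooth muscle cells sorted from mouse lung. The set was defined by gene symbol and holds 10 of the 21049 genes in the deposited table: Eln, Fbn1, Fbn2, Fbln1, Fbln5, Efemp2, Mfap2, Mfap4, Mfap5 and Emilin1. All 10 were found. The study compared the smooth muscle types of the lung by RNA sequencing, with 3 libraries in each of 3 groups. SmMCll stands for total lung smooth muscle, veins included, from tg-Acta2-GFP mice. The group PASMCs held pulmonary arterial smooth muscle cells from the line called ASMC-effector, with the genotype Cspg4/Acta2-CreER/R26-GFP. The group BSMCs held bronchial smooth muscle cells from the line called NVSMC-effector, with the genotype Chrm2/Acta2-CreER/R26-GFP. All 9 libraries carry the label of a 3 day course of injected tamoxifen, which activates the inducible recombinases, with a daily or total dose given as 0.75 mg for every 10 g of mouse. Acta2 also marks myofibroblasts, so a sort by an Acta2 transgene or driver is not limited to smooth muscle. Because no 2 groups shared a mouse line, cell population, line and sort cannot be told apart in any comparison below. Nothing in the labels ties replicates to different animals. The spread behind each p-value is that between libraries and may be technical.

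Elastic fibres let arteries, airways and alveolar walls stretch and recoil. Their core is elastin, which smooth muscle cells and fibroblasts secrete as soluble tropoelastin and which lysyl oxidases crosslink. The core forms on a scaffold of microfibrils built from fibrillins, to which microfibril-associated glycoproteins, fibulins and EMILIN proteins bind. Loss of elastin, of fibrillin or of some fibulins in mice gives arterial or airspace defects.

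Values below are normalized read counts, the deposited unit, given by library or as mean ± SD with n = 3 a group. Fold changes are differences of log2(value + 1) with the standard error (SE) of a limma fit to all genes and libraries, and a gene is called at a Benjamini-Hochberg adjusted p under 0.05 over all 15647 genes tested. The deposited whole numbers carried the factor by which each library had been multiplied. Dividing by it gave implied reads, of which the libraries held 9.43 to 9.90 M in SmMCll, 8.92 to 10.02 M in PASMCs and 6.39 to 9.33 M in BSMCs. Smooth muscle markers were high throughout: 8 of them summed to 25338 to 30887 in SmMCll, 29937 to 33322 in PASMCs and 31710 to 37774 in BSMCs, with none at 0. Of these 8, 6 were called lower for SmMCll against BSMCs, where 18.2% of all genes were lower. For SmMCll against PASMCs 2 were lower, beside 6.83% of all genes. None was called higher in any comparison, and none was called for PASMCs against BSMCs. The summed airway smooth muscle markers went against the labels. The summed vascular markers stood in the order of the labels, with PASMCs and BSMCs close to overlap. The 8 airway markers summed to 10159 to 10881 in SmMCll, 15471 to 15908 in PASMCs and 7997 to 8504 in BSMCs, and Chrm2, the muscarinic receptor in the name of the bronchial line, was at 305 ± 57.9, 327 ± 111 and 164 ± 54.6. Of the 7 airway markers tested, 5 were higher and 0 lower for PASMCs against BSMCs. The 10 markers of vascular smooth muscle and pericytes summed to 17052 to 18614 in SmMCll, 22068 to 24024 in PASMCs and 19272 to 22054 in BSMCs, with 3 higher and 1 lower for PASMCs against BSMCs. Cspg4, the gene in the genotype of the arterial line, was at 555 ± 211 in SmMCll, 2003 ± 370 in PASMCs and 1514 ± 244 in BSMCs. Its mean was thus highest in PASMCs, with overlap between PASMCs and BSMCs. Abcc9 had the largest difference in mean between those 2 groups, at 2576 ± 505 in PASMCs and 750 ± 319 in BSMCs. It was highest in SmMCll, at 4398 ± 390. Group names below therefore mean the libraries so labelled. The 8 leukocyte markers summed to 2231 to 2706, 2429 to 2521 and 7612 to 10990 in the same order. Of them 6 were called higher and 1 lower for SmMCll against PASMCs, beside 9.39% and 6.83% of all genes. Ptprc, the pan-leukocyte phosphatase, was at 0 in every PASMCs library and at 0, 4 and 3 in SmMCll. Lyz2 was lower in SmMCll than in PASMCs, at 404 ± 76.4, 1734 ± 94.9 and 2401 ± 433 in the 3 groups.

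Elastin itself had the most implied reads per length of the 10 genes and no called difference. Eln (ENSMUSG00000029675, mm39 chromosome 5, 134731447 to 134776177, minus strand) was at 6523, 6479 and 7274 in SmMCll, 7191, 6552 and 7284 in PASMCs and 8175, 6742 and 9613 in BSMCs. The BSMCs group held the widest spread, and its replicate 2 lay inside the range of both other groups. The change was -0.05 (SE 0.12, limma adjusted p = 0.849) for SmMCll against PASMCs, -0.26 (SE 0.12, adjusted p = 0.102) for SmMCll against BSMCs and -0.21 (SE 0.12, adjusted p = 0.22) for PASMCs against BSMCs. Without BSMCs replicate 2 both comparisons with BSMCs were called, at limma adjusted p = 0.00702 for SmMCll and 0.0188 for PASMCs. After quantile normalization they were called too (0.0013 and 0.0159), whereas on implied reads without scaling the PASMCs difference was 0.02.

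The spread of Eln followed the library factors. In implied reads Eln was at 7098, 7188 and 7288 in SmMCll, 7548, 7596 and 7586 in PASMCs and 7315, 7542 and 7515 in BSMCs. The highest of the 9 libraries exceeded the lowest by 1.07-fold in implied reads and by 1.48-fold in normalized counts, the same as the 1.48-fold range of the factors. Only 0.872% of 2752 tested genes with 1000 to 10000 implied reads had a narrower range, and the median gene of that class had a range of 2.00-fold. The ratio of the variance of the implied reads to their mean was 1.26 in SmMCll, 0.0847 in PASMCs and 2.06 in BSMCs. Counting error alone gives a ratio of 1 on average, and each ratio rests on 3 libraries. Differences in the mean log2 factor were -0.23 for PASMCs against BSMCs and -0.21 for SmMCll against BSMCs, about the size of the Eln changes above. Eln had 1.84 to 1.97 implied reads per base of its principal transcript, the highest density of the 10 genes. The lack of a call does not show equal expression. The cause of this uniformity was not tested.

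**Figure D1:**
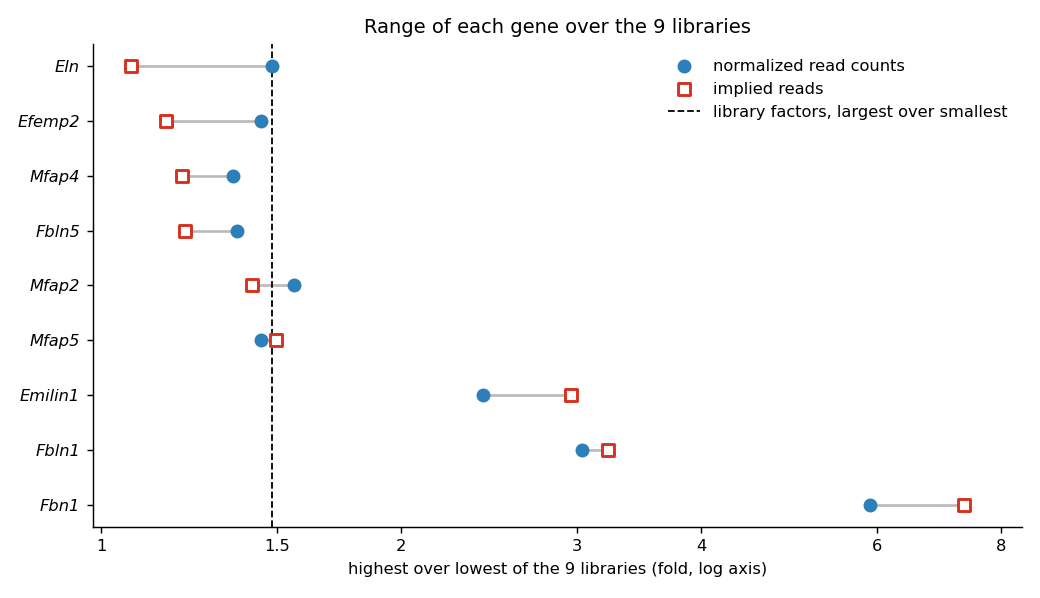
Highest over lowest of the 9 libraries (fold, log axis) for the 9 tested genes, in normalized read counts (filled circles) and implied reads (open squares), with the range of the library factors as a dashed line. Eln spans 1.07-fold in implied reads and 1.48-fold in normalized counts, whereas Fbn1 spans 7.34-fold and 5.91-fold.

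The other members spread more widely in implied reads. The implied reads of Eln, Efemp2, Mfap4, Fbln5, Mfap2 and Mfap5 ranged over less than 1.5-fold, from 1.07-fold for Eln to 1.497-fold for Mfap5. Among the same 2752 genes a narrower range than theirs was found in 0.872% for Eln, 4.47% for Efemp2, 6.87% for Mfap4, 7.59% for Fbln5, 21.7% for Mfap2 and 27% for Mfap5. The implied reads of Emilin1, Fbln1 and Fbn1 ranged over 2.96-fold, 3.23-fold and 7.34-fold. Fbn2 was close to absent and was not tested.

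Fbn1 showed the strongest change of the set. It encodes fibrillin-1, the main structural protein of microfibrils (ENSMUSG00000027204, chromosome 2, 125142514 to 125349913, minus strand). It was at 8384, 8219 and 9736 in SmMCll, 4333, 3158 and 3693 in PASMCs and 1806, 1647 and 1700 in BSMCs. No library of a group reached the range of another, and the order was SmMCll, PASMCs, BSMCs. The change was 2.35 (SE 0.12, limma adjusted p = 2.17e-07) for SmMCll against BSMCs, 1.24 (SE 0.12, adjusted p = 6.08e-05) for SmMCll against PASMCs and 1.11 (SE 0.12, adjusted p = 9.57e-05) for PASMCs against BSMCs. In implied reads per base of transcript it ran from 0.111 in the lowest library to 0.815 in the highest.

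Fbn2 encodes fibrillin-2, a microfibril protein known mainly from developing tissue (ENSMUSG00000024598, chromosome 18, 58141695 to 58343559, minus strand). It was at 2, 11 and 7 in SmMCll, 1, 0 and 21 in PASMCs and 7, 8 and 0 in BSMCs. The groups overlapped in full. Libraries at the minimum of 10 were 2, fewer than the 3 required, so Fbn2 did not pass the filter and no fold is given. At most 22 implied reads supported it in any library.

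Fbln1 followed Fbn1. It encodes fibulin-1, a glycoprotein of elastic fibres and basement membranes (ENSMUSG00000006369, chromosome 15, 85090150 to 85170736, plus strand). It was at 5426, 5198 and 5965 in SmMCll, 3449, 3214 and 3692 in PASMCs and 2205, 1963 and 2370 in BSMCs. The groups did not overlap and stood in the same order as for Fbn1. The change was 1.35 (SE 0.11, limma adjusted p = 4.60e-06) for SmMCll against BSMCs, 0.68 (SE 0.11, adjusted p = 0.00113) for SmMCll against PASMCs and 0.67 (SE 0.11, adjusted p = 0.00126) for PASMCs against BSMCs. Fbn1 and Fbln1 were called in each comparison under all 18 alternative settings.

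The summed fibroblast markers stood in the same order as these 2 genes, but some single markers of both lists did not. The 8 adventitial fibroblast markers, which include Pi16, Dpt and Col14a1, summed to 30203 to 34691 in SmMCll, 16141 to 19327 in PASMCs and 8545 to 11288 in BSMCs. Ly6a and Dcn departed from this order by mean, and the other adventitial markers followed it. Both were higher in BSMCs than in PASMCs, with overlap, at 1243 against 1012 for Ly6a and 3368 against 3163 for Dcn. Of the 8 adventitial markers 6 were called higher for SmMCll against BSMCs, 4 for SmMCll against PASMCs and 6 for PASMCs against BSMCs, and none lower. Of all tested genes 23.7%, 9.39% and 13.2% were called higher in these comparisons, and 18.2%, 6.83% and 8.88% lower. The 8 alveolar fibroblast markers summed to 17500 to 20800, 14429 to 16182 and 8956 to 11105 in that order. Of the alveolar markers 3 were called higher and 0 lower for SmMCll against BSMCs, 2 higher and 2 lower for SmMCll against PASMCs and 6 higher and 0 lower for PASMCs against BSMCs. By mean, only Pdgfra, Wnt2 and Ces1d followed the order of the sums. Pdgfra had the largest difference in mean between SmMCll and PASMCs, at 7386 and 1874. Npnt, Limch1 and Fgfr4 were highest in PASMCs, and Tcf21 and Inmt were higher in BSMCs than in PASMCs. Npnt was at 3828, 5912 and 3909 in SmMCll, PASMCs and BSMCs. In that group order, the 7 mesothelial markers summed to 5609 to 6762, 253 to 409 and 570 to 1382. No fibroblast marker was at 0 in all libraries of a group, and of the mesothelial markers Muc16 was at 0 in all PASMCs libraries. Their part in the result was not tested. In these bulk samples a different share of cells of a type and a different RNA level per cell cannot be told apart.

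The promoters of Fbn1 and Fbln1 are shown because these 2 genes changed together in every comparison. Each window runs from 250 bases before to 50 bases after a RefSeq transcription start on GRCm38.p6, an earlier build than mm39, and is written 5′ to 3′ on the strand of the gene. Capitals mark a GC box, GGGCGG on either strand. For Fbln1 the first of 2 listed windows is given.
Fbn1, chr2:125506389-125506688, minus strand: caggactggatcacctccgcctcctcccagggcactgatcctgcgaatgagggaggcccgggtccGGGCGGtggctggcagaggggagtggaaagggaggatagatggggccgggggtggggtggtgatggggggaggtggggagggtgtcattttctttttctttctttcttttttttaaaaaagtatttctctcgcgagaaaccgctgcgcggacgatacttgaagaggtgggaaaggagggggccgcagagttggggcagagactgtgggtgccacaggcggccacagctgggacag
Fbln1, chr15:85205699-85205998, plus strand: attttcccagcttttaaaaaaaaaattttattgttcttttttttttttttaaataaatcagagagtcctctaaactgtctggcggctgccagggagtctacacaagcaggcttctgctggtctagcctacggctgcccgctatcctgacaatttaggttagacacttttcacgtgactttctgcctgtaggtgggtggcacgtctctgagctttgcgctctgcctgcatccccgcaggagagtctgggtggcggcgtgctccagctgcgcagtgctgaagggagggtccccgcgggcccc
The Fbn1 window held 1 GC box, 185 bases before the start, and it overlapped no other searched motif. The Fbln1 window shown held 0, and the second Fbln1 window, which overlaps it, held 2. Neither window shown held a TATA box (TATAAA), an AP-1 site (TGANTCA), an MCAT element (GGAATG) or the CArG box that binds serum response factor, all searched on both strands. Of 32851 promoter windows of this length, 35.7% held a GC box, 13.6% a TATA box, 7.81% an AP-1 site, 14.7% an MCAT element and 1.63% a CArG box. In all, 6 of the 10 genes had at least 1 window in the table.

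The 2 fibulins that mice need to assemble elastic fibres were not called in any comparison. Fbln5, fibulin-5, which links tropoelastin to microfibrils and integrins (ENSMUSG00000021186, chromosome 12, 101712824 to 101785314, minus strand), was at 3585, 3571 and 4078 in SmMCll, 4186, 3769 and 4237 in PASMCs and 4473, 4146 and 4885 in BSMCs. SmMCll lay below BSMCs without overlap, by -0.265 (SE 0.10, limma adjusted p = 0.0579), and overlapped PASMCs. That comparison was called without BSMCs replicate 2 (-0.32, limma adjusted p = 0.0199) and after quantile normalization (0.00146), cyclic loess (0.00918) or scaling to library totals (0.00499). Fbln5 was also called lower for PASMCs against BSMCs after quantile normalization (-0.27, adjusted p = 0.0356). In implied reads Fbln5 was at 4394, 4370 and 4413 in PASMCs, within the 3819 to 4638 of BSMCs.

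Efemp2, fibulin-4, which brings lysyl oxidase to tropoelastin (ENSMUSG00000024909, chromosome 19, 5523982 to 5532545, plus strand), was at 2201, 2042 and 2251 in SmMCll, 1965, 1872 and 2070 in PASMCs and 2497, 2082 and 2707 in BSMCs. PASMCs lay below BSMCs without overlap, by -0.30 (SE 0.12, limma adjusted p = 0.089). Without BSMCs replicate 2 it was called for PASMCs against BSMCs (-0.40, adjusted p = 0.00881) and for SmMCll against BSMCs (-0.27, adjusted p = 0.0432). Quantile normalization and scaling to library totals gave calls in the same comparisons (limma adjusted p = 0.0327 and 0.0355 for PASMCs, 0.0485 and 0.0474 for SmMCll). Its implied reads ranged over 1.16-fold in the 9 libraries. Efemp2 overlaps Mus81 on the opposite strand, at 688 at most, and the sources used here do not say whether counting used strand, so reads of the overlap may belong to either gene.

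The 2 microfibril-associated glycoproteins, small proteins that bind fibrillin, missed the threshold in every comparison. Mfap2 (ENSMUSG00000060572, chromosome 4, 140737729 to 140743295, plus strand) was at 1425, 1321 and 1479 in SmMCll, 1044, 1039 and 1152 in PASMCs and 1406, 999 and 1557 in BSMCs. Mfap5 (ENSMUSG00000030116, chromosome 6, 122482804 to 122506249, plus strand) was at 2463, 2325 and 2619 in SmMCll, 1944, 1813 and 2157 in PASMCs and 2450, 2020 and 2290 in BSMCs. Both lay higher in SmMCll than in PASMCs without overlap, and BSMCs overlapped PASMCs for both. The SmMCll against PASMCs difference missed the threshold, with 0.38 (SE 0.16, limma adjusted p = 0.133) for Mfap2 and 0.33 (SE 0.12, adjusted p = 0.0808) for Mfap5. Without BSMCs replicate 2, which enters the shared estimate of spread, these 2 differences were called at adjusted p = 0.0183 and 0.0337. Mfap2 was then also called for PASMCs against BSMCs (-0.46, adjusted p = 0.00824). In implied reads the order was kept: Mfap2 was at 1551, 1465 and 1482 in SmMCll against 1096, 1205 and 1200 in PASMCs, and Mfap5 at 2680, 2579 and 2624 against 2041, 2102 and 2247.

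Mfap4, a fibrinogen-related glycoprotein that binds tropoelastin and fibrillin-1 (ENSMUSG00000042436, chromosome 11, 61376257 to 61379726, plus strand), was at 2672, 2669 and 3055 in SmMCll, 2717, 2397 and 2692 in PASMCs and 2864, 2400 and 3249 in BSMCs. All 3 groups overlapped. Its changes were 0.10 (limma adjusted p = 0.681) for SmMCll against PASMCs, -0.01 (adjusted p = 0.948) for SmMCll against BSMCs and -0.12 (adjusted p = 0.514) for PASMCs against BSMCs. It had 1.44 to 1.73 implied reads per base, and its implied reads ranged over 1.21-fold, and the lack of a call does not show equal expression here either. Mfap4 overlaps Mapk7 on the opposite strand, at 935 at most.

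Emilin1 set BSMCs apart from both other groups. It encodes a glycoprotein at the interface of the elastin core and the microfibrils that also restrains TGF-beta processing in mouse arteries (ENSMUSG00000029163, chromosome 5, 31070746 to 31078621, plus strand). It was at 4267, 3873 and 4220 in SmMCll, 4320, 4078 and 4238 in PASMCs and 1787, 3148 and 3277 in BSMCs. SmMCll and PASMCs overlapped, and every BSMCs library lay below both, with replicate 1 farthest. The change was 0.64 (SE 0.19, limma adjusted p = 0.0187) for SmMCll against BSMCs and 0.67 (SE 0.19, adjusted p = 0.027) for PASMCs against BSMCs. Without BSMCs replicate 1 the changes were 0.36 and 0.39, still called at limma adjusted p = 0.0217 and 0.0312. The PASMCs call was lost with only those 2 groups fitted (adjusted p = 0.0677) and without PASMCs replicate 1 (limma adjusted p = 0.0878), 2 (0.0681) or 3 (0.0619), and the SmMCll call without SmMCll replicate 1 (0.0581) or 3 (0.0573). Across the alternatives its limma adjusted p lay between 0.0067 and 0.0581 for SmMCll, and between 0.00808 and 0.0878 for PASMCs.

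**Figure D2:**
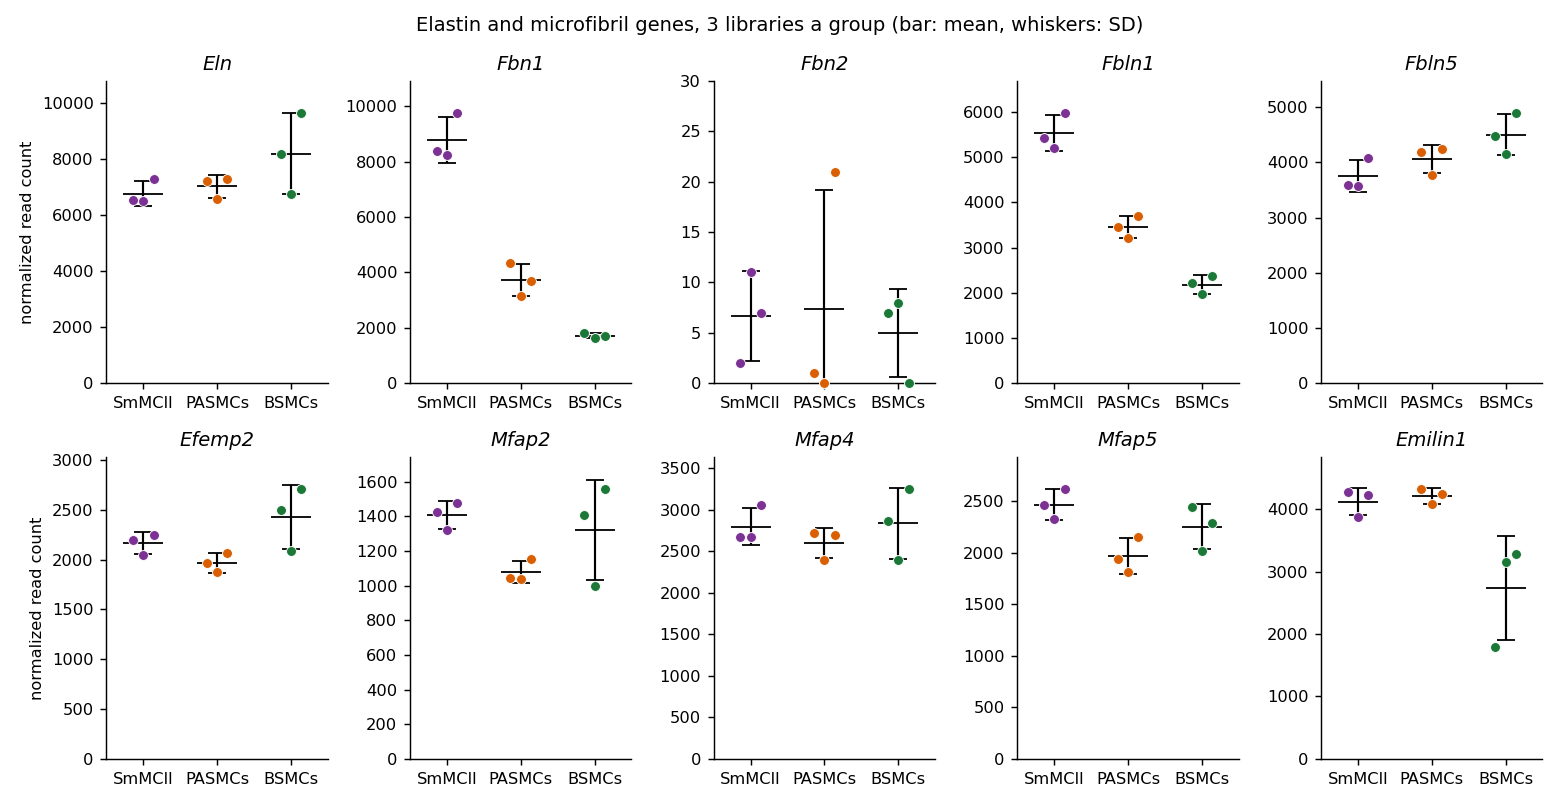
Normalized read count of each of the 10 genes (vertical axis, from 0) in the libraries of SmMCll, PASMCs and BSMCs, with 1 point a library, a bar at the mean and whiskers at 1 SD (n = 3). Fbn1 and Fbln1 step down from SmMCll to PASMCs to BSMCs without overlap, Emilin1 is lower in BSMCs, and Fbn2 does not exceed 21.

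Over the tested members as a whole, the share called was 22.2% for SmMCll against PASMCs and 33.3% in each comparison with BSMCs. With 9 genes these shares are close to the background and are not read as a result about the set. For SmMCll against PASMCs 2 of the 9 tested genes were called, both higher, where 16.2% of all tested genes were called, 9.39% higher and 6.83% lower. For SmMCll against BSMCs 3 were called, all higher, beside 41.9% of all genes, 23.7% higher and 18.2% lower. For PASMCs against BSMCs 3 were called, all higher, beside 22.1%, 13.2% higher and 8.88% lower. None was called lower in any comparison. The median change of the 9 genes was 0.14, 0.12 and -0.15 in these comparisons, beside 0.03, 0.05 and 0.05 over all genes. Groups did not overlap in 4 genes for SmMCll against PASMCs, all higher, where 40.5% of all tested genes had no overlap, 22.6% higher and 18% lower. For SmMCll against BSMCs 3 genes were higher and 1 lower without overlap, beside 50.5% of all genes, 26.6% higher and 23.9% lower. For PASMCs against BSMCs 3 were higher and 1 lower, beside 35.2%, 17.6% in each direction. The comparisons share groups, so their counts are not independent of each other. Without BSMCs replicate 2 the numbers of called members were 4, 6 and 6, and the share of all genes called was 21%, 52.8% and 41.7%.

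**Figure D3:**
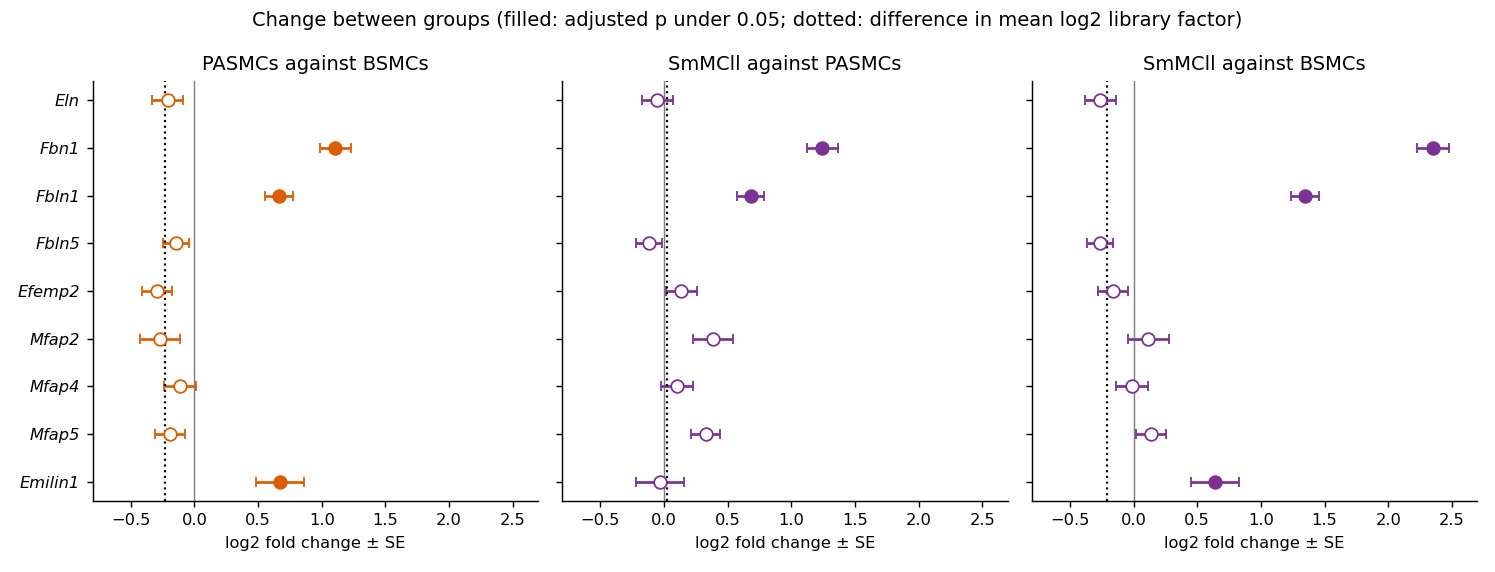
Log2 fold change with its SE (horizontal axis) of the 9 tested genes in the 3 comparisons; filled points are called at an adjusted p under 0.05 and the dotted line is the difference in mean log2 library factor. Fbn1 and Fbln1 are called in all 3, Emilin1 in the comparisons with BSMCs, and Eln lies close to the dotted line.

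Levels were set against each other as implied reads per kilobase of principal transcript, mean ± SD. The ratio of variance to mean of the implied reads of Eln, the densest gene, was below 1 only in PASMCs. In PASMCs it was also below 1 for Mfap4 (0.49) and for Fbln5 (0.106), which is less dense. Whether implied reads per kilobase follow expression among the densest genes was not tested. Eln was highest in every group, at 1866 ± 24.7 in SmMCll, 1966 ± 6.57 in PASMCs and 1935 ± 32.2 in BSMCs. Mfap4 came next in every group, at 1682 ± 44.1, 1589 ± 21.0 and 1467 ± 44.0. Fbln1 took the third place in SmMCll, at 1608 ± 29.1, against 1019 ± 30.8 in PASMCs and 549 ± 47.6 in BSMCs, where only Fbn1 and Fbn2 were lower. Mfap2 was at 1397 ± 42.5, 1088 ± 57.4 and 1116 ± 67.1. Emilin1 was at 1139 ± 57.7, 1184 ± 41.1 and 665 ± 250, and in BSMCs its spread covered Fbln5, Mfap5, Efemp2 and Fbln1. Mfap5 was at 1055 ± 20.3, 855 ± 42.5 and 835 ± 102, close to Efemp2 at 875 ± 29.7, 809 ± 22.1 and 845 ± 40.5; these genes lay within their spread of each other in PASMCs and BSMCs. Fbn1 was at 780 ± 30.6, 336 ± 39.1 and 133 ± 21.5, above Fbln5 (683 ± 16.2) in SmMCll and below Fbln5 (754 ± 3.70 and 713 ± 73.7) in PASMCs and BSMCs. Fbn2 stayed at 0.634 ± 0.453, 0.694 ± 1.13 and 0.453 ± 0.415.

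Ratios of 2 genes in the same library do not depend on how that library was scaled, and 5 were tested over the 3 groups. The ratio of Eln to Fbn1 was 0.778, 0.788 and 0.747 in SmMCll, 1.66, 2.07 and 1.97 in PASMCs and 4.53, 4.09 and 5.65 in BSMCs. The groups did not overlap (two-sided exact permutation test, p = 0.00357, the smallest that the arrangements of 9 libraries can give, and 0.00893 adjusted over 5 ratios). The ratio of Fbln5 to Fbln1 was 0.661, 0.687 and 0.684 in SmMCll, 1.21, 1.17 and 1.15 in PASMCs and 2.03, 2.11 and 2.06 in BSMCs, again without overlap (exact permutation p = 0.00357, adjusted 0.00893). In both ratios the called changes were those of the denominator, Fbn1 or Fbln1. The ratio of Fbln5 to Efemp2 was 1.63, 1.75 and 1.81 in SmMCll, 2.13, 2.01 and 2.05 in PASMCs and 1.79, 1.99 and 1.80 in BSMCs (exact permutation p = 0.0107, adjusted 0.0179). PASMCs were above both other groups without overlap. This result was lost without SmMCll replicate 1 (adjusted exact p = 0.0595) or PASMCs replicate 1 (0.0833), 2 (0.0774) or 3 (0.0774). The ratio of Mfap5 to Mfap2 was 1.73, 1.76 and 1.77 in SmMCll, 1.86, 1.74 and 1.87 in PASMCs and 1.74, 2.02 and 1.47 in BSMCs, and did not differ beyond the spread (exact permutation p = 0.789, adjusted 0.789). It passed without BSMCs replicate 2 (adjusted exact p = 0.0402). The ratio of Fbn2 to Fbn1 rests on the few reads of Fbn2 (exact permutation p = 0.532, adjusted 0.665).

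**Figure D4:**
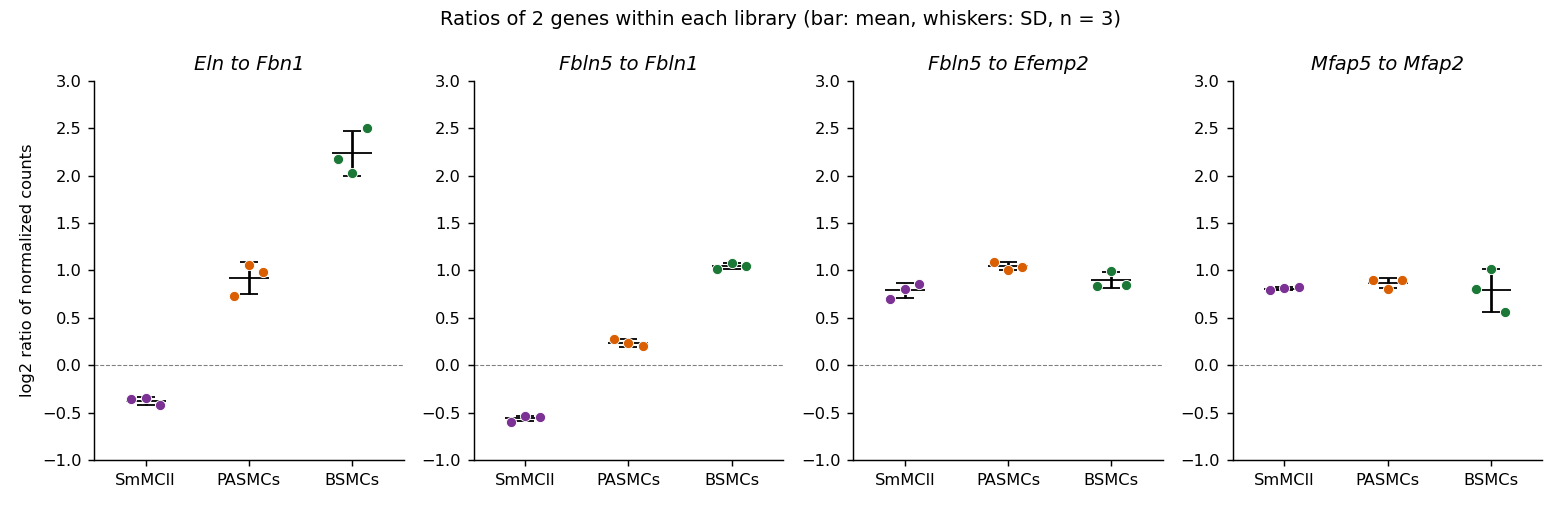
Log2 ratio of normalized counts of 2 genes (vertical axis, 0 means equal counts) in each library of SmMCll, PASMCs and BSMCs, with the mean as a bar and 1 SD as whiskers (n = 3). The Eln to Fbn1 and Fbln5 to Fbln1 ratios climb in separate steps across the groups, while Mfap5 to Mfap2 overlaps.

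Genes with the pattern most like these were ranked by Pearson correlation of log2(value + 1) over the 9 libraries, among 5426 genes with a mean of at least 500. Among the closest to Fbn1 were Serpina3n, a serine protease inhibitor (r = 0.994), C3, complement component C3 (0.993), Col14a1, a fibril-associated collagen (0.991), and Adgrd1, an adhesion receptor (0.991). Col14a1 is also among the adventitial fibroblast markers above. Closest to Eln were Vim (0.992), Oaz1 (0.991), Cnn1 (0.991), Aldh2 (0.990) and Aldoa (0.990), whose own implied reads ranged over 1.058-fold to 1.115-fold. The log2 values of these 5 genes correlated with the log2 library factor at 0.97 to 0.99, that of Eln at 0.98 and that of Fbn1 at -0.44. The points share libraries and scaling and fall into 3 groups, so these are descriptions without a test.

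The remaining genes of the elastic fibre were counted by list, and each count stands beside the share of all tested genes: 41.9% called for SmMCll against BSMCs (23.7% higher, 18.2% lower), 16.2% for SmMCll against PASMCs (9.39% higher, 6.83% lower) and 22.1% for PASMCs against BSMCs (13.2% higher, 8.88% lower). The median change over all genes was 0.05, 0.03 and 0.05 in these comparisons.

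Of the 5 enzymes that crosslink elastin, the Lox family, 4 were higher in SmMCll than in BSMCs, where 23.7% of all genes were higher. Lox, lysyl oxidase, was at 3049, 2905 and 3014 in SmMCll, 2673, 2141 and 1940 in PASMCs and 1413, 2218 and 801 in BSMCs. It was called for SmMCll against BSMCs (1.14, SE 0.28, limma adjusted p = 0.00756). Loxl4 was at 417 ± 53.7, 259 ± 98.7 and 58.0 ± 9.2 in the same order, and was called for SmMCll (2.83, adjusted p = 3.17e-05) and PASMCs (2.06, adjusted p = 0.000553) against BSMCs. For PASMCs against BSMCs 2 of 5 were called, both higher. For SmMCll against PASMCs 0 of 5 were called, while 2 of 5 had an unadjusted p under 0.05 and 3 were called with only these groups fitted. Loxl1, the member abundant in elastic tissue, was at 4055 ± 375 and 3285 ± 213 (0.30, adjusted p = 0.118). The list medians were 0.82, 0.71 and 0.30 for SmMCll against BSMCs, PASMCs against BSMCs and SmMCll against PASMCs. The count of 4 was 2 without BSMCs replicate 1 or SmMCll replicate 1. It was also 2 after quantile normalization, after scaling to library totals and with only the compared groups fitted. The PASMCs against BSMCs count of 2 was 1 without BSMCs replicate 1, without PASMCs replicate 1 or 3, or with only those groups fitted. Without BSMCs replicate 2 that count was 5.

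Of 8 relatives of the fibulins and of EMILIN1, 7 were tested. For SmMCll against BSMCs 6 were called higher, beside 23.7% of all genes. For SmMCll against PASMCs 5 were called higher, beside 9.39%, and for PASMCs against BSMCs 2, beside 13.2%. None was called lower, and the medians were 2.14, 1.58 and 0.58, against 0.05, 0.03 and 0.05 over all genes. Emilin2 was at 2297, 1822 and 2115 in SmMCll, 396, 424 and 589 in PASMCs and 412, 275 and 261 in BSMCs. SmMCll stood apart, by 2.16 (SE 0.21, limma adjusted p = 5.22e-05) against PASMCs and 2.74 (SE 0.21, adjusted p = 3.23e-06) against BSMCs. Efemp1, fibulin-3, was at 3195 ± 149, 1068 ± 59.7 and 592 ± 200. It was called for SmMCll (2.49, adjusted p = 6.73e-06) and PASMCs (0.91, adjusted p = 0.0105) against BSMCs, and for SmMCll against PASMCs (1.58, adjusted p = 0.000383). Fbln2, fibulin-2, was at 5463, 5235 and 6455 in SmMCll, 3273, 2862 and 3178 in PASMCs and 938, 1500 and 1543 in BSMCs, the same order as Fbn1 and Fbln1. It was higher in PASMCs than in BSMCs (1.26, adjusted p = 0.000451). In SmMCll it was higher than in PASMCs (0.88, adjusted p = 0.00476) and BSMCs (2.14, adjusted p = 5.55e-06). Mmrn1, multimerin-1 of platelets and endothelium, was at 462, 458 and 393 in SmMCll, 17, 35 and 26 in PASMCs and 10, 52 and 1 in BSMCs. It was called for SmMCll against PASMCs (4.08, adjusted p = 0.00695) and against BSMCs (5.38, adjusted p = 0.000591; 6.54 without BSMCs replicate 2 and 4.18 without BSMCs replicate 3). The 8 endothelial markers summed to 11725 to 13963 in SmMCll, 6625 to 8232 in PASMCs and 7445 to 7683 in BSMCs, with none at 0. Among these markers 5 were called higher for SmMCll against PASMCs and 3 for SmMCll against BSMCs, and none lower. Their part was not tested.

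Latent TGF-beta binding proteins, which share domains with fibrillins, and the TGF-beta ligands went in both directions. Of 7 genes 3 were higher and 2 lower for SmMCll against BSMCs (41.9% of all genes called), 0 higher and 1 lower for SmMCll against PASMCs (16.2%) and 3 higher and 1 lower for PASMCs against BSMCs (22.1%), with medians of 0.24, -0.16 and 0.40. Ltbp3 was at 3970 ± 280, 5098 ± 244 and 2969 ± 600 in SmMCll, PASMCs and BSMCs, and was higher in PASMCs than in BSMCs (0.80, SE 0.14, limma adjusted p = 0.00212). Tgfb3 was higher in SmMCll than in BSMCs (4082 ± 367 against 2628 ± 277.5, 0.64, adjusted p = 0.00094) and Tgfb1 was lower (204 ± 18.7 against 538 ± 55.3, -1.39, adjusted p = 0.000156). The PASMCs against BSMCs count of 4 was 2 without BSMCs replicate 1 or PASMCs replicate 1 or 2. The single SmMCll against PASMCs call, Tgfb2 (823 ± 54.8 and 1234 ± 242, -0.57), was lost without PASMCs replicate 1 or 3 or any SmMCll replicate, at limma adjusted p = 0.0523 to 0.105. That count was 2 without BSMCs replicate 1.

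Proteins of the ADAMTS and ADAMTS-like family, several of which bind microfibrils, were called for SmMCll against BSMCs in 3 of 9 genes higher and 1 lower, where 41.9% of all genes were called. For SmMCll against PASMCs 2 were higher and 1 lower (16.2% of all genes called), and for PASMCs against BSMCs 5 were higher and 0 lower (22.1%). Without PASMCs replicate 1 that count was 3. The medians were 0.33, -0.25 and 0.48. Adamtsl2, a binding partner of fibrillin-1, was at 1111, 1065 and 1123 in SmMCll, 1127, 1023 and 1075 in PASMCs and 159, 270 and 473 in BSMCs. BSMCs stood below both other groups, which overlapped (2.01, SE 0.29, limma adjusted p = 0.000305 for SmMCll and 1.97, SE 0.29, adjusted p = 0.000709 for PASMCs). Thsd4, also called ADAMTSL6, which promotes fibrillin-1 microfibril assembly in mice, was at 911, 1021 and 1251 in SmMCll, 3173, 2577 and 3123 in PASMCs and 1645, 1860 and 1644 in BSMCs. SmMCll was lowest and PASMCs highest, with -1.48 (SE 0.14, adjusted p = 4.63e-05) for SmMCll against PASMCs and -0.70 (SE 0.14, adjusted p = 0.00232) for SmMCll against BSMCs, where the BSMCs comparison was lost on implied reads without scaling (adjusted p = 0.0642). For PASMCs against BSMCs it was higher (0.78, SE 0.14, limma adjusted p = 0.00242). It thus moved opposite to Fbn1 in the SmMCll comparisons and in the same direction for PASMCs against BSMCs.

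Matrix partners, processing enzymes and receptors gave 3 of 12 genes higher and 0 lower for SmMCll against BSMCs (41.9% of all genes called), 1 higher and 3 lower for SmMCll against PASMCs (16.2%) and 5 higher and 0 lower for PASMCs against BSMCs (22.1%), with medians of 0.20, 0.01 and 0.28. Vcan, the proteoglycan versican, was at 939 ± 142 in SmMCll, 771 ± 210 in PASMCs and 158 ± 41.1 in BSMCs, and was called for SmMCll (2.58, limma adjusted p = 1.62e-05) and PASMCs (2.27, adjusted p = 7.64e-05) against BSMCs. Glb1, the beta-galactosidase gene whose splice variant chaperones tropoelastin, was at 829 ± 56.7, 342 ± 73.9 and 455 ± 30.3, higher in SmMCll than in PASMCs (1.29, adjusted p = 0.000355) and BSMCs (0.86, adjusted p = 0.0021). The PASMCs against BSMCs count was 3 without BSMCs replicate 1 or 3 or PASMCs replicate 1. The SmMCll against BSMCs count was 5 without BSMCs replicate 2. The SmMCll against PASMCs count was 2 without PASMCs replicate 1 or 3 or SmMCll replicate 1 or 2, and 1 without SmMCll replicate 3.

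Enzymes that degrade elastin, with their inhibitors, are represented by 12 tested genes, of which 4 were higher and 4 lower for SmMCll against BSMCs (41.9% of all genes called), 5 higher and 1 lower for SmMCll against PASMCs (16.2%) and 1 higher and 3 lower for PASMCs against BSMCs (22.1%), with medians of -0.04, 0.19 and -0.07. Of these genes Mmp12, Mmp9 and Ctss were highest in BSMCs without overlap and were called against both other groups. The inhibitors Timp2, Timp3 and Cst3 also had their highest mean in BSMCs but were not called in any comparison. Elane, neutrophil elastase, was on the list but had no entry among the deposited genes. Mmp12, macrophage elastase, was listed at 0 in all SmMCll and all PASMCs libraries, against 26, 98 and 31 in BSMCs. Mmp9 was at 22, 76 and 32 in SmMCll, 18, 10 and 16 in PASMCs and 514, 594 and 425 in BSMCs (-3.71, limma adjusted p = 5.71e-05 for SmMCll and -5.05, adjusted p = 1.36e-05 for PASMCs against BSMCs). Ctss, cathepsin S, was at 31, 70 and 35, 0, 0 and 2, and 1464, 804 and 1210 in SmMCll, PASMCs and BSMCs. The sum of the leukocyte markers given above was also highest in BSMCs, as for Mmp12, Mmp9 and Ctss. Of these markers 7 of the 8 were called lower for PASMCs and 8 of 8 for SmMCll against BSMCs. Their part was not tested. Ctsk, the elastolytic cathepsin K of fibroblasts and osteoclasts, went the other way, at 1411 ± 168 in SmMCll, 502 ± 122 in PASMCs and 360 ± 82.1 in BSMCs (1.51, adjusted p = 0.000583 for SmMCll against PASMCs). Timp1, an inhibitor of metalloproteinases, was at 1116 ± 41.9, 417 ± 93.6 and 413 ± 126, higher in SmMCll than in PASMCs (1.44, adjusted p = 0.00148) and BSMCs (1.49, adjusted p = 0.000585). Timp4 was lower in SmMCll than in PASMCs (817 ± 95.1 against 1681 ± 240, -1.04, adjusted p = 0.000355).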

How the data were processed

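RNA sequencing libraries of 3 groups with 3 replicates were analysed. Per the submitters' processing notes, which give no role or order, the authors used DESeq2 1.36.0, featureCounts 2.0.4, Picard 3.1.1, STAR 2.7.11a, Trimmomatic 0.39 and mm39. Per the labels' protocols, at most 10 ng of RNA entered each SMART-Seq v4 library. The deposited values are given the unit score: read counts that the authors multiplied by 1 factor per library and rounded. Factors (0.863 to 1.28) were read from the spacing of the whole numbers and checked on simulated tables; a value divided by its factor is the implied reads.

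The filter asked for a value of 10 in 3 libraries or more, and 15647 genes passed. limma 3.58.1 (R 4.3.3) fitted log2(value + 1) with 3 group means, trend and robust options. Ratios had an exact permutation test. Both were tested on simulated data. None of the 9 pairs of replicates were copies (chi-square per gene 6.44 to 32.0). Alternatives changed the pseudocount, filter, normalization, replicate block, fitted groups and libraries. The transcript called principal here was the longest with the highest APPRIS principal tag in GENCODE vM21. A gene without that tag took its longest transcript. Promoters came from RefSeq. The text names all 10 genes, genes among the 3 largest called changes in each direction of 6 further lists (of the 2 most abundant where none was called), and the 5 genes most like Eln and Fbn1, of which 1 is not reported here. Members and lists were chosen with earlier results of these data known. Scripts ran in Python 3.11.15 with matplotlib 3.10.9, scipy 1.17.1, pandas 2.3.3 and numpy 2.4.6.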

Additional observations from a re-analysis of the deposited data

How the results depend on the processing

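Fbn1 and Fbln1 kept their direction and their call in every comparison under all 18 alternatives. Of 486 changes of the 9 tested genes over all alternatives, 436 kept direction and side of the threshold, 6 were no longer called (all Emilin1), 26 became called and 18 turned sign, none of these called. The number of called members for PASMCs against BSMCs was 6 after quantile normalization and 5 after cyclic loess. For SmMCll against BSMCs it was 6, 5 and 6 after quantile, cyclic loess and total scaling. For SmMCll against PASMCs it was 4 with only these groups fitted. Leaving out single libraries gave 2 to 6, 2 to 6 and 2 to 4 called members for PASMCs against BSMCs, SmMCll against BSMCs and SmMCll against PASMCs, and 1701 to 6364, 4254 to 8056 and 1597 to 3205 called genes. With only the compared groups fitted, 1926 genes were called for PASMCs against BSMCs and 4345 for SmMCll against PASMCs. The cause was not tested.

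Signs turned for SmMCll against BSMCs in Mfap2 (-0.030, -0.018 and -0.043) and Mfap5 (-0.015, -3.27e-05 and -0.024) after quantile, cyclic loess and total scaling. Unscaled implied reads gave a median over all genes of 0.27 for PASMCs and 0.25 for SmMCll against BSMCs. They turned Mfap5 (0.040), Eln (0.023), Mfap4 (0.12) and Fbln5 (0.086) for PASMCs, and Efemp2 (0.051) and Mfap4 (0.20) for SmMCll. Total scaling gave a median of -0.11 for SmMCll against BSMCs. Leaving out single libraries turned Mfap4 and Mfap2 for SmMCll against BSMCs (-0.13 to 0.091 and -0.073 to 0.25) and Emilin1 for SmMCll against PASMCs (-0.059 to 0.011). Of all calls for PASMCs against BSMCs, 59.8% were higher in PASMCs, against 49.3% after quantile, 50% after cyclic loess, 46.3% after total scaling and 72.7% on implied reads. For SmMCll against BSMCs these shares were 56.6%, 45%, 49.8%, 42.8% and 69.9%.

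Replicate numbers did not pair the libraries: deviations of same-numbered libraries correlated at -0.124 to 0.136, and not every library correlated best with its own number. With the replicate number as a block, 5 members were called for SmMCll against BSMCs, with Eln (-0.26, limma adjusted p = 0.0417) and Fbln5 (-0.265, 0.032) added. In the block, 216 arrangements allow no exact p below 0.0278, and the adjusted p was 0.0694 for Eln to Fbn1 and for Fbln5 to Fbln1 and 0.0926 for Fbln5 to Efemp2. The Fbln5 to Efemp2 ratio gave an adjusted exact p of 0.0536 after quantile normalization and 0.00595 to 0.0833 without single libraries. The Mfap5 to Mfap2 ratio gave 0.0402 to 0.814 without single libraries, and its highest group changed without BSMCs replicate 3 (0.468). The Fbn2 to Fbn1 ratio gave 0.0402 with a pseudocount of 10.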
